A study of Mus musculus with 17 samples.

Results

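The tables of small RNA and of immunoprecipitated RNA from mouse testis list 1389 Ensembl transcripts whose annotated length is 1 of 13 consecutive values beginning at 100 nt, out of 37991 Ensembl transcripts in all. These 1389 short transcripts were chosen by length alone, a range that takes in U6 and similar small RNAs. Mael encodes Maelstrom (MAEL), a germ cell protein of the piRNA pathway. Testes of the 129SvJae strain were either wild type or Mael-/-, and total RNA of 15 to 50 nt was sequenced from each genotype in 2 libraries, called a and b after the letter in the labels. From wild-type testis, RNA was precipitated with an anti-Mael antibody or with rabbit IgG. The anti-Mael precipitates gave 2 libraries of long RNA, 1 of RNA of 50 to 150 nt and 1 of RNA of 15 to 50 nt, and IgG gave 1 library of long RNA. The labels do not state separate animals for libraries a and b, so p-values here measure only the spread between libraries, which may be technical. The labels give no age of the animals, and no level of Mael was used here to check the genotypes.

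Transcripts of about 100 nt are mostly structured noncoding RNAs. U6 is the small nuclear RNA at the catalytic core of the spliceosome. It is made by RNA polymerase III, and the mouse genome holds many copies and pseudogene copies of it. Other RNAs of this length are small nucleolar RNAs, which guide chemical modification of ribosomal RNA, Y RNAs and the longer microRNA hairpins. A full-length RNA of this size fits into a library of 50 to 150 nt, whereas a library of 15 to 50 nt can hold only pieces of it. The files pair no gene name or sequence with the transcript IDs, and 0 of the 1389 IDs matched the reference tables, so no transcript is called U6 or any other RNA below. For the same reason the level of no marker gene of another cell type was read.

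Lengths were unevenly filled. Of the 1389 short transcripts, 428 were annotated at 107 nt and 163 at 110 nt, while the longest length had 29 and 111 nt had 37. In all 1125 had a count in at least 1 of the 9 libraries and 264 had none, and at 107 nt 394 of 428 had a count. The number with a count was 506 and 426 in wild-type small RNA, 523 and 500 in Mael-/- small RNA, 1033 with anti-Mael at 15 to 50 nt, 773 at 50 to 150 nt, 203 and 274 in long anti-Mael RNA and 234 with IgG. Depth differed between these libraries, with totals from 4831638 to 169615964 counts. In the mRNA tables, which count coding parts, 3 of the 1389 had a coding size, and 5 counts fell on them over those 8 libraries of mRNA and footprints.

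Many of the short transcripts shared their counts. Transcripts were put in 1 set when their counts differed by at most 10% plus 5 counts from those of its member with most counts. This had to hold in every one of the 9 libraries, and the rule was made after the data were seen. Other members of a set could differ from each other by more. Of 427 short transcripts with at least 100 counts in total, 243 fell into 66 such sets. The largest set held 29 transcripts of 107 nt, each with 21376 to 22425 counts with anti-Mael at 50 to 150 nt, and the next held 24 of 107 nt with 21327 to 21918 counts. The members of a set may be near-identical copies that take the same reads, and no source used here says how the authors counted a read with several matches. Summed counts may therefore hold some reads more than once, and the value of any transcript in a set is uncertain. Counting each set once lowered the summed share at 50 to 150 nt from 5.13% to 2.44% of the library.

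**Figure D1:**
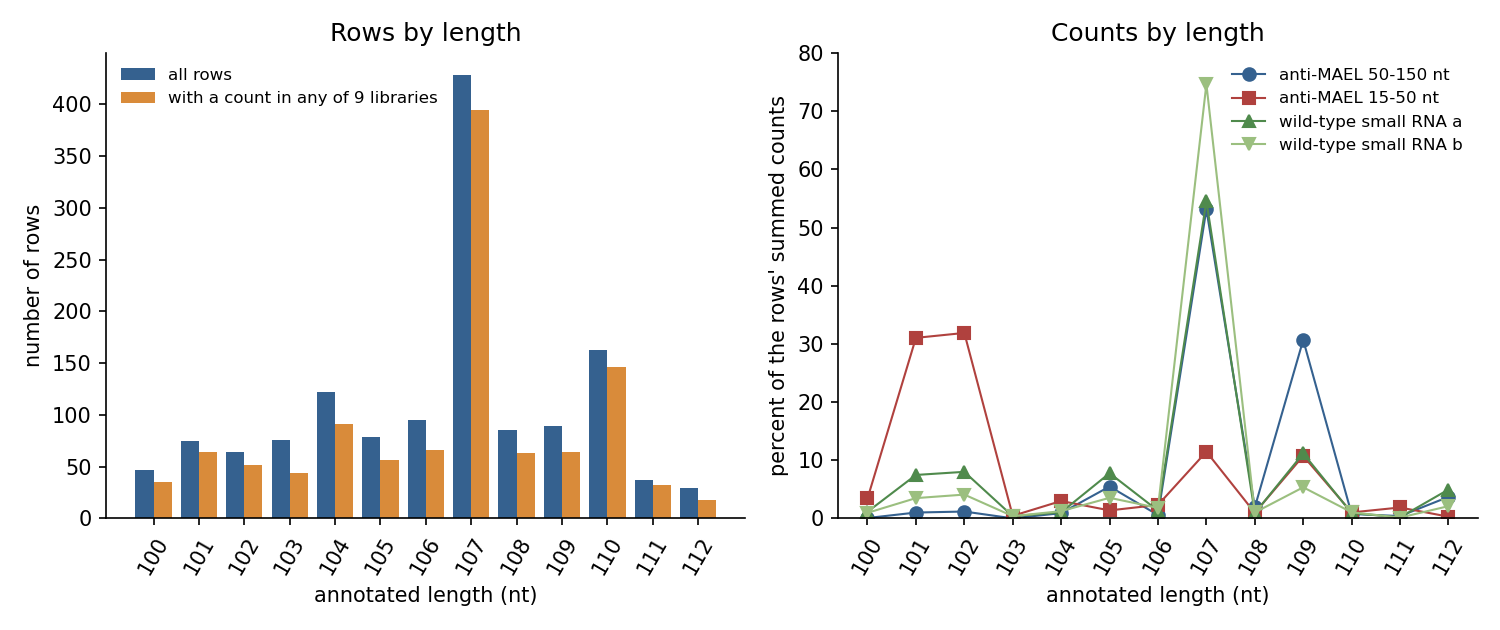
Left, the number of short transcripts at each annotated length in nt (blue) and of those with a count in any of the 9 libraries (orange). Right, the percent of the summed counts of all 1389 that fell on each length in 4 libraries; 107 nt stands out in 3 of them, with 53.1% to 74.6%, and 101 and 102 nt in the anti-Mael library of 15 to 50 nt.

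The first comparison asked whether small RNA from these transcripts differed between genotypes. As a share of all counts it was higher in Mael-/- testis in every pairing of libraries. The short transcripts took 0.213% of counts in wild-type library a and 0.431% in b, and 0.969% and 2.11% in Mael-/- libraries a and b. The groups did not overlap, and the means were 0.322% ± 0.154 and 1.54% ± 0.807 (SD, n = 2), a ratio of 4.78. The ratio was 2.85 with totals over Ensembl transcripts alone, 3.01 without Mael-/- replicate b and 7.22 without wild-type replicate b. Libraries with the letter b held more than those with the letter a in both genotypes, and within a letter the ratio was 4.54 for a and 4.89 for b. With 2 libraries against 2 the two-sided exact permutation test cannot go below 0.333, which it gave. Over the same libraries the share of piRNA loci went from 82.8% ± 0.552 to 71.9% ± 4.98. Shares of a library sum to a fixed total, and how much of the ratio of 4.78 goes with this fall was not tested. In whole testis, fewer cells of a type and less RNA per cell cannot be told apart.

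The 428 transcripts of 107 nt took 0.116% and 0.322% of counts in wild-type libraries a and b, and 0.458% and 1.39% in Mael-/-. The 961 transcripts of the other 12 lengths were steadier, at 0.0969% and 0.109% in wild type and 0.510% and 0.718% in Mael-/-. Their ratio of Mael-/- to wild type was 5.96, against 4.22 at 107 nt. By length the ratio was lowest at 102 nt, 3.89, and highest at 109 nt, 7.89, with 111 nt at 7.81 and 105 nt at 7.74. At 111 nt the libraries disagreed, with a ratio of 2.85 within letter a and 10.9 within letter b. The other short classes of Ensembl transcripts give the setting. The ratio was 4.70 for 50 to 99 nt, 6.45 for the 10 lengths just above the range, 2.16 for transcripts over 200 nt, and 0.356 for those in between, and no test of these differences was made.

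Counted one by one on the same scale, 400 of the 1389 short transcripts (28.8%) were higher in both Mael-/- libraries than in both wild-type libraries and 17 (1.22%) were lower, while 770 had no count in any of the 4. Over all 38205 Ensembl transcripts and piRNA loci the percentages were 28.7% and 3.24%. The share of short transcripts with higher values was near that of the tables as a whole.

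The test scales libraries by the bulk of measured features (TMM). That scaling moved the median log2 fold change of all 9906 features tested from 1.42 with library totals to 0.15. Of the 1389 short transcripts, 333 passed the filter on low counts. Among those 19 were higher in Mael-/- small RNA and 8 lower (edgeR quasi-likelihood, Benjamini-Hochberg adjusted p under 0.05), beside 3.82% of all tested features called higher and 3.49% lower. The called shares of the 333 were 5.71% and 2.40%, which is near that background. Their median log2 fold change was 0.83 (interquartile range 0.71 to 1.11), against 0.15 for all features tested, and 308 of 333 were above 0, values given as a description of those that passed the filter.

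Both counts moved with scaling and with single libraries. The split of 19 higher and 8 lower became 89 and 0 with library totals and 3 and 11 with size factors, although each of the 27 kept its direction. With library totals the median log2 fold change of all features tested was itself 1.42. The share of all features called was counted only for the fit that gave 19 and 8, so the other counts have no background beside them. Without wild-type replicate a, 1 was higher and 0 lower, and the median was 0.28, close to 0.23 for all features. Leaving out wild-type replicate b gave 4 and 5, Mael-/- replicate a 11 and 21, and Mael-/- replicate b 45 and 9.

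**Figure D2:**
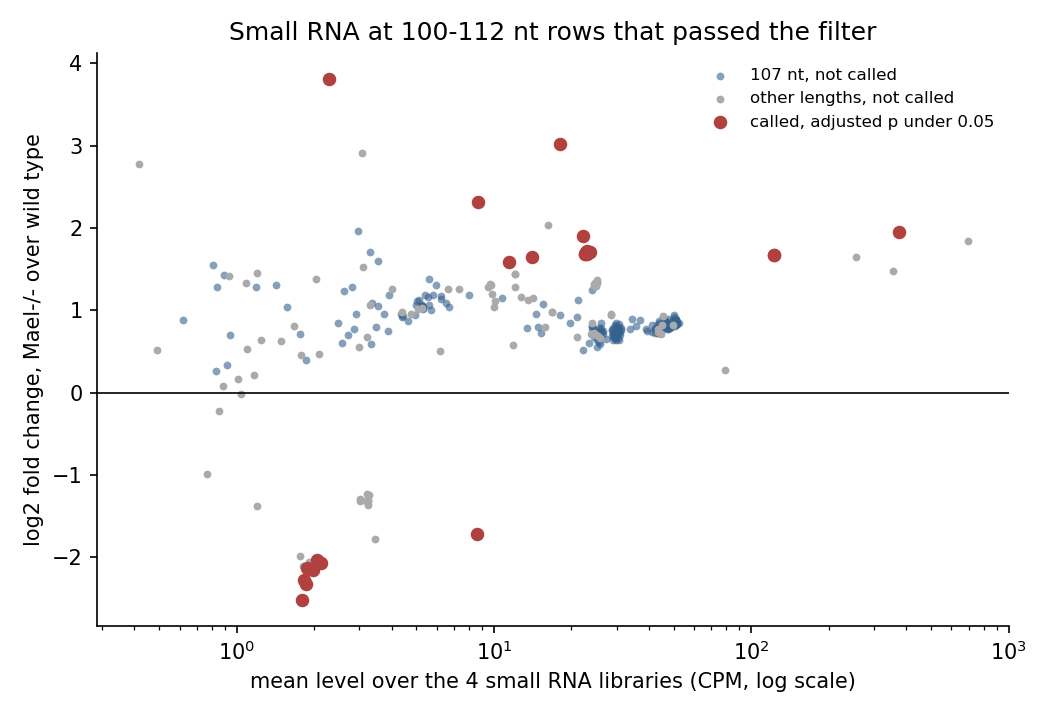
Each point is 1 of the 333 short transcripts that passed the filter, by its mean CPM over the 4 small RNA libraries (log axis) and its log2 fold change of Mael-/- over wild type with TMM scaling. The 209 transcripts of 107 nt (blue) all lie above 0 with none called, and the 27 called ones (red) have other lengths.

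At 107 nt, 209 transcripts were tested and 0 were called (edgeR quasi-likelihood, lowest adjusted p 0.0729; 24 with an unadjusted p under 0.05). With library totals 29 were called higher, and with DESeq2, which tested 308, 0 were. With the letter as a replicate block 179 of the 209 were called higher, but the labels do not say what a letter marks. The share of all features called was not counted for these other fits, so their counts have no background. All 209 had a value above 0 with TMM, library totals and size factors, with a median log2 fold change of 0.81 with TMM. With no filter on low counts 288 of 308 did, and with 1 library left out 2 to 5 did not. Of the 209, 133 lie in sets that share counts and cannot be taken as separate measurements. With TMM the 27 calls lay at other lengths, 11 higher and 8 lower at 101 and 102 nt. There were 4 higher at 109 nt, and 1 higher each at 103, 105 and 110 nt and at the longest length. Of 58 tested at 101 and 102 nt, 19.0% were called higher and 13.8% lower. Of 124 tested at the other 12 lengths it was 15.3% and 6.45%, beside 3.82% and 3.49% of all features. Sets that share counts weigh on these shares. With each set counted once, by its member with most counts, 177 were tested, of which 9 were higher and 3 lower. ENSMUST00000175165 and ENSMUST00000175274 were still counted apart. Their small RNA counts lie near those of the sets of 9 and 8 transcripts of 101 nt given below.

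Transcripts of 101 and 102 nt went both ways. Of 58 tested, 38 were above 0 and 20 below. A set of 9 transcripts of 101 nt held 252 to 260 and 39 to 43 counts in wild-type libraries a and b, and 920 to 956 and 179 to 192 in Mael-/- a and b. All 9 were called, with log2 fold changes of 1.68 to 1.72 (edgeR quasi-likelihood, adjusted p = 0.0452 to 0.0486). None of the 9 was called with size factors, with no filter, or without wild-type replicate a or b. Without Mael-/- replicate a none was called either, and the values were 0.83 to 0.91. A set of 8 transcripts of the same length held 116 to 127 and 16 to 22 counts in wild type, and only 27 to 34 and 4 to 7 in Mael-/-. Their log2 fold changes were -2.33 to -2.03, with 6 of 8 called (edgeR quasi-likelihood, adjusted p = 0.0372 to 0.0508 over the 8). With library totals they were -1.25 to -0.93 and none was called, as without wild-type replicate a. A set of 15 transcripts of 100 to 102 nt had values of 1.30 to 1.37 and a set of 8 of 101 and 102 nt values of -1.36 to -1.22, with none of either called. These sets were singled out after their values were seen.

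The transcript ENSMUST00000109941 (102 nt) fell. It stood at 10.2 and 9.64 CPM (counts scaled to a library total of 1000000) in wild-type libraries a and b and at 5.62 and 8.90 CPM in Mael-/-. The groups did not overlap, but Mael-/- b came close to wild type on this scale. On the TMM scale this was a log2 fold change of -1.72, with an SE of 0.390 (adjusted p = 0.0292, edgeR quasi-likelihood). With library totals it was -0.47 with the call lost, and the call was also lost without wild-type replicate a or b and with no filter on low counts.

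Of the transcripts that rose, ENSMUST00000116828 (109 nt) had the largest change at a mean of at least 5 CPM. Its counts were 32 and 22 in wild type and 137 and 301 in Mael-/-, or 0.720 and 2.83 CPM against 6.26 and 62.3 CPM. The value rested largely on Mael-/- library b, and the log2 fold change of 3.02 with an SE of 0.804 (adjusted p = 0.0473, edgeR quasi-likelihood) was 1.37 without it, with the call lost. The call was lost without wild-type replicate a too, at 2.11. ENSMUST00000175189 (102 nt) was steadier, at 1.35 and 1.54 CPM in wild type and 17.6 and 14.3 CPM in Mael-/-. Its log2 fold change was 2.32 with an SE of 0.475 (adjusted p = 0.0207, edgeR quasi-likelihood), and the call was lost without Mael-/- replicate a (1.40, adjusted p = 0.0780) and without either wild-type library.

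The 5 most abundant short transcripts of wild-type small RNA were ENSMUST00000082864, ENSMUST00000083767, ENSMUST00000082521, ENSMUST00000083377 and ENSMUST00000121415. The first, of 109 nt, stood at 163 and 128 CPM in wild type and at 1059 and 1429.95 CPM in Mael-/-. The groups were far apart on this scale, and with TMM the log2 fold change of 1.84 with an SE of 0.513 did not pass (adjusted p = 0.0522, edgeR quasi-likelihood), whereas it passed with DESeq2 (1.74, adjusted p = 0.00867), with library totals and without either Mael-/- library. ENSMUST00000083767, of the longest length, stood at 102.48 and 86.5 CPM against 566 and 664 CPM (log2 fold change 1.48, adjusted p = 0.0781, edgeR quasi-likelihood). ENSMUST00000082521 (105 nt) went from 83.3 and 63.9 CPM to 595 and 765 CPM. It passed the test, at a log2 fold change of 1.96 with an SE of 0.502 (adjusted p = 0.0439, edgeR quasi-likelihood), and the call was lost with size factors, with no filter and without either wild-type library. ENSMUST00000083377, also of 105 nt, stood at 65.9 and 53.9 CPM against 374 and 524 CPM and did not pass (log2 fold change 1.65, adjusted p = 0.0576, edgeR quasi-likelihood). With DESeq2 these 2 passed, at an adjusted p of 0.0488 for ENSMUST00000083767 and 0.0227 for ENSMUST00000083377, and both passed with library totals. The fifth, ENSMUST00000121415 (102 nt), moved least, from 41.7 and 38.6 to 87.1 and 149 CPM. Its log2 fold change was 0.27 with an SE of 0.425 (adjusted p = 0.689, edgeR quasi-likelihood).

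**Figure D3:**
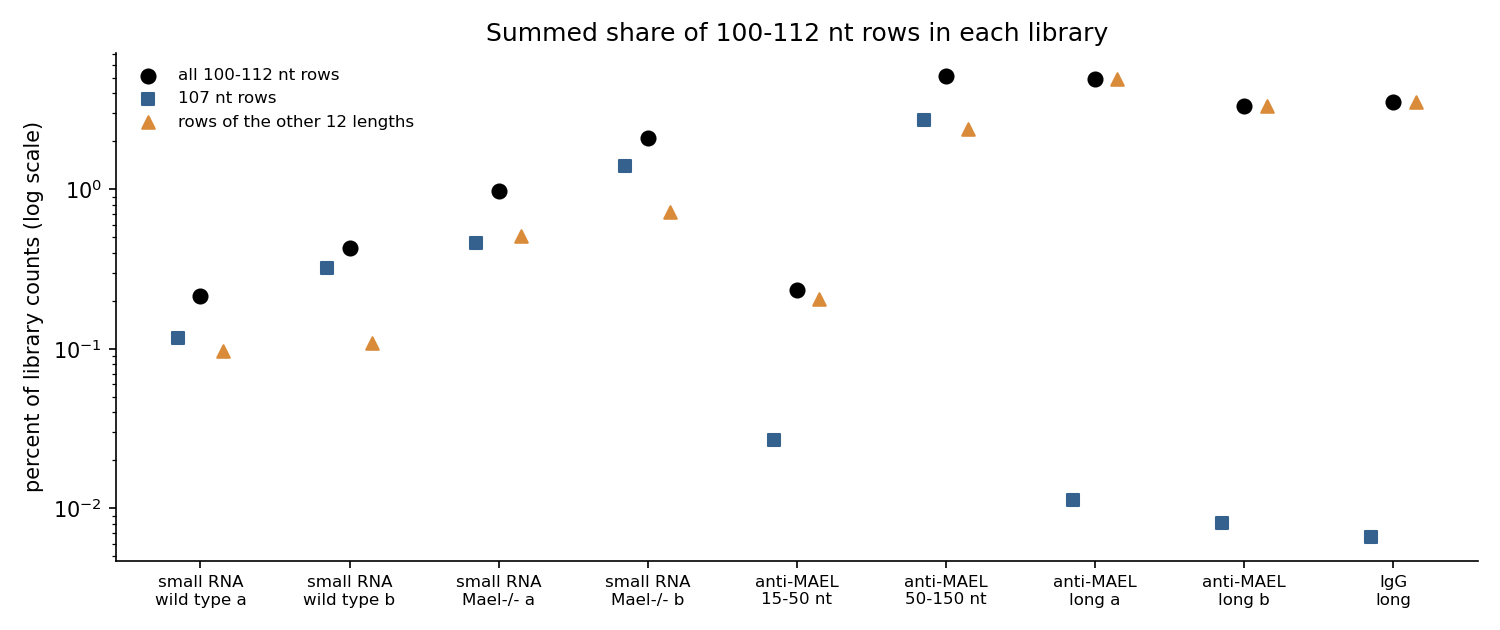
Percent of library counts (log axis) on all short transcripts (black), on those of 107 nt (blue) and on those of the other 12 lengths (orange) in each of the 9 libraries. The black points are at 0.213% to 0.431% in wild-type small RNA and 0.969% to 2.11% in Mael-/-, and the blue points drop to between 0.00657% and 0.0113% in long RNA.

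The size fractions of the anti-Mael immunoprecipitate were set side by side to see in which of them these RNAs lay. Each fraction is 1 library with no IgG of its size, so the values have no replicate check and no background, and intervals cover counting error only. Short transcripts took 5.13% of counts at 50 to 150 nt (exact binomial 95% interval 5.12 to 5.13) and 0.233% at 15 to 50 nt (0.232 to 0.234), a ratio of 22.0. For Ensembl transcripts of 50 to 99 nt the ratio was 6.31, for the 10 lengths just above the range 10.6 and from there to 200 nt 7.04, whereas it was 0.275 over 200 nt and 0.244 for piRNA loci. The 10 lengths just above the range took far more of the 50 to 150 nt library, 56.6%.

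The contrast between fractions was widest at the longest length and at 107 nt. At 107 nt, 1849280 counts in the longer fraction stood against 45348 in the shorter one, a ratio of shares of 101.87. At the longest length the ratio was 262, and 1 transcript held most of its counts. It was 87.0 at 105 nt and 62.8 at 109 nt. At the short end the order turned, with 0.520 at 100 nt and 0.725 at 101 nt. It was 0.826 at 102 nt, where ENSMUST00000109941 held 54340 of 125977 counts in the shorter fraction and 955 of 41668 in the longer. The direction at 102 nt rests on that transcript. Lengths of 101 and 102 nt held 62.9% of the short transcripts' counts in the shorter fraction and 2.22% in the longer, while 107 nt held 11.5% and 53.1%. In wild-type small RNA, also of 15 to 50 nt but not precipitated, 107 nt held 54.6% and 74.6% and lengths of 101 and 102 nt 15.5% and 7.61%.

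Among 249 short transcripts with at least 100 counts in both fractions, the ratio of CPM at 50 to 150 nt over 15 to 50 nt ran from 0.0439 to 690.1 with a median of 7.48. The median over all 4517 features with as many counts was 0.365. All 165 eligible transcripts of 107 nt were above 1, with a median of 35.8. Of 51 eligible transcripts of 101 and 102 nt, 38 were below 1, with a median of 0.926. Here too sets that share counts weigh on the medians.

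**Figure D4:**
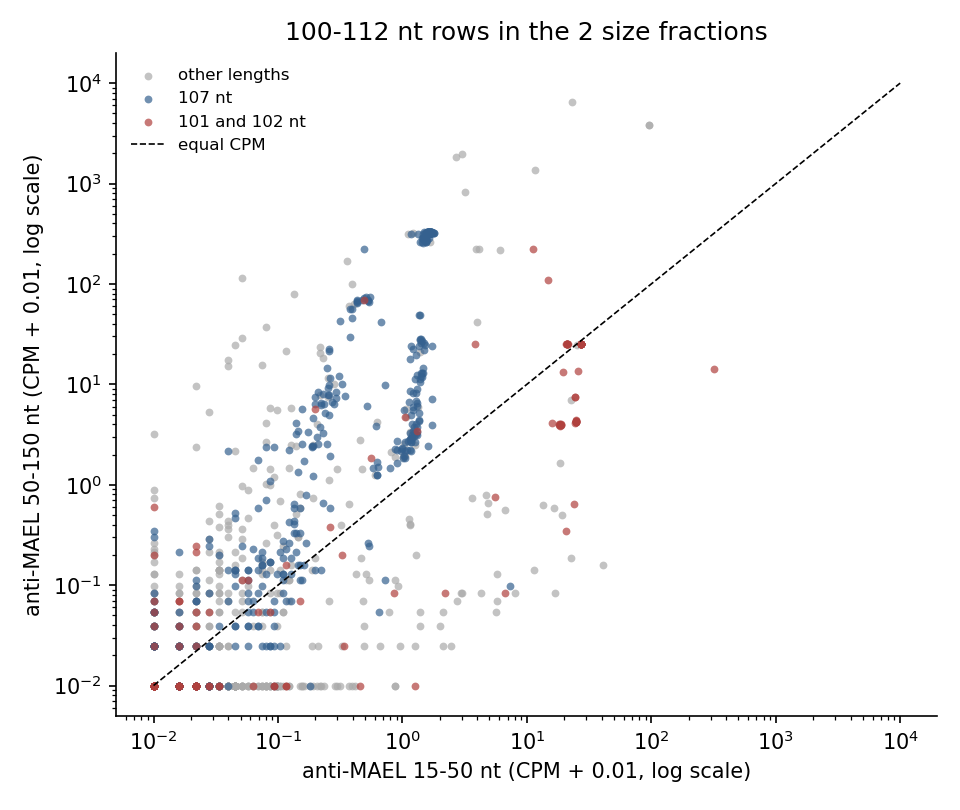
Each point is 1 short transcript, by its CPM with anti-Mael at 15 to 50 nt and at 50 to 150 nt (log axes, 0.01 CPM added to each), and the dashed line marks equal CPM. Transcripts of 107 nt (blue) with at least 100 counts in both fractions lie above the line and 38 of 51 such transcripts of 101 and 102 nt (red) below it.

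Transcripts with fewer than 100 counts in either fraction were not ranked. Among the 249 others the highest ratio belonged to ENSMUST00000175499, of the longest length, with 125418 counts in the longer fraction and 454 in the shorter. ENSMUST00000082521 (105 nt) followed, with 133901 and 506. Their ratios of CPM were 690.1 and 661. Next came ENSMUST00000082956 (108 nt), with 21468 and 185 counts and a ratio of 289.9, and 1 other transcript shared its counts. ENSMUST00000175499 was scarce in total small RNA, at 2.81 and 4.24 CPM in wild type and 23.0 and 26.1 CPM in Mael-/-, a difference that passed the test (log2 fold change 1.65, SE 0.403, adjusted p = 0.0377, edgeR quasi-likelihood). That call was lost with size factors, with no filter, without either wild-type library, and without Mael-/- replicate a, where the log2 fold change was 1.03.

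Among the same 249 the lowest ratio belonged to ENSMUST00000109941, with 955 counts in the longer fraction and 54340 in the shorter, or 14.1 against 320.4 CPM. This transcript, which fell in Mael-/- small RNA, held the most counts of any short transcript in the 15 to 50 nt immunoprecipitate, 13.8% of their sum. ENSMUST00000112230 (111 nt) followed with 110 and 3134 counts, a ratio of 0.0877. The next, ENSMUST00000175374 (101 nt), had 281 and 4168 counts and is 1 of the set of 9 described for small RNA.

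At 50 to 150 nt the most abundant short transcript was ENSMUST00000082864, with 441060 counts or 6496 CPM, and 23.2 CPM at 15 to 50 nt. ENSMUST00000093696 and ENSMUST00000175042, both of 109 nt, came next with 261868 and 261855 counts. Their counts were near equal in all 9 libraries (1246 each in wild-type small RNA a, 4455 and 4451 in Mael-/- a), so they cannot be told apart here. They were also the next after ENSMUST00000109941 at 15 to 50 nt, with 16298 and 16297 counts. Together with ENSMUST00000082521 and ENSMUST00000175499 these made up the top 5 of the 50 to 150 nt library.

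At 15 to 50 nt the immunoprecipitate could be set against total small RNA of the same size range from wild type. Short transcripts took 0.233% of the precipitate and 0.322% ± 0.154 (SD, n = 2) of total small RNA, a difference smaller than the gap between the 2 wild-type libraries. The parts differed more. At 107 nt the ratio of precipitate to total was 0.122, with 0.0267% against 0.219% ± 0.145, and at the other 12 lengths it was 1.9995, with 0.206% against 0.103% ± 0.00879. Of 258 short transcripts with at least 100 counts in the precipitate and 20 in the wild-type libraries together, 67 (26.0%) had a ratio above 1, compared with 69.3% of all 5420 such features. These ratios move with the total: with Ensembl transcripts alone in it, the ratio was 0.0292 at 107 nt and turned to 0.473 at the other lengths, and 15.1% of the 258 and 49.5% of the features were above 1. With every table entry in the total the ratios were 0.188 and 3.09, and the percentages 29.1% and 75.9%. The extremes were ENSMUST00000082521, at 2.98 CPM in the precipitate against 73.6 CPM, a ratio of 0.0405, and ENSMUST00000109941, at 320.4 against 9.90 CPM, a ratio of 32.4.

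A few short transcripts were counted in the precipitate and not in total small RNA. Of 300 with at least 100 counts with anti-Mael at 15 to 50 nt, 11 had 0 counts in all 4 small RNA libraries. The share of all features that did so was not counted. Of the 11, ENSMUST00000083584 and ENSMUST00000175601 lie in sets whose other transcript did have small RNA counts. That transcript held 4 counts in wild-type library a for the first and 4 in Mael-/- library a for the second. Which copy took a read was not tested, so their 0 counts are uncertain. The precipitate was also the deepest library, with 169615964 counts against 4831638 to 44416966 in total small RNA. The most abundant of the 11, ENSMUST00000158348 (106 nt), held 6931 counts or 40.9 CPM in the precipitate and 10 counts at 50 to 150 nt. Against a floor of 3 counts over both wild-type libraries, or 0.0575 CPM, it was at least 710.9-fold higher. The other 10, chosen after their values were seen, held 131 to 2863 counts, at least 13.4-fold to 294-fold above that floor. All 11 were selected for at least 100 counts in the precipitate and 0 in small RNA. Lying above the floor therefore follows from the selection, and these folds only describe the transcripts and do not test for enrichment. The remaining leader at 15 to 50 nt, ENSMUST00000175102 (102 nt), was at 27.4 CPM in the precipitate and at 7.72 and 6.94 CPM in wild-type small RNA, and belongs to the set of 15.

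The last comparison asked whether long RNA precipitated with anti-Mael held more of these transcripts than IgG. It was not shown to. The short transcripts took 4.94% and 3.32% of counts in anti-Mael libraries a and b and 3.54% with IgG (exact binomial 95% interval 3.53 to 3.56), so IgG lay between the 2 anti-Mael libraries. Long libraries were made from fragments of 120 to 200 bp, longer than any of these transcripts, by a kit that does not mark strand. Most of the signal was 1 transcript, ENSMUST00000121415 (102 nt), at 253856 and 337893 counts in anti-Mael libraries a and b and 260693 in the IgG library. That is 90.1%, 94.4% and 94.5% of the short transcripts' counts, and 44515 and 31285 CPM against 33509 CPM. The IgG value again lay between the others, and the log2 fold change was 0.60 with an SE of 3.23 (adjusted p = 0.998, edgeR quasi-likelihood). At 50 to 150 nt this transcript had 1730 counts or 25.5 CPM. Whether the long reads came from its own RNA or from a longer RNA that overlaps or matches it was not tested.

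Without it, the other 1388 short transcripts took 0.488% and 0.187% with anti-Mael and 0.193% with IgG, so that anti-Mael b was close to IgG and a was above both. The 4 transcripts that followed, all of 109 nt, showed the same order. ENSMUST00000082864 stood at 1354 and 479.5 CPM in the anti-Mael libraries against 500.1 CPM for IgG, and ENSMUST00000175157 at 1134 and 394 CPM against 398 CPM. ENSMUST00000093696 and ENSMUST00000175042, which share counts, stood at 1011 and 367 CPM against 382 CPM. Their log2 fold changes were 1.35 to 1.45 and none passed (edgeR quasi-likelihood, adjusted p = 0.985 to 0.998). At 107 nt the level was low in all 3, with 642, 868 and 511 counts over 428 transcripts.

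**Figure D5:**
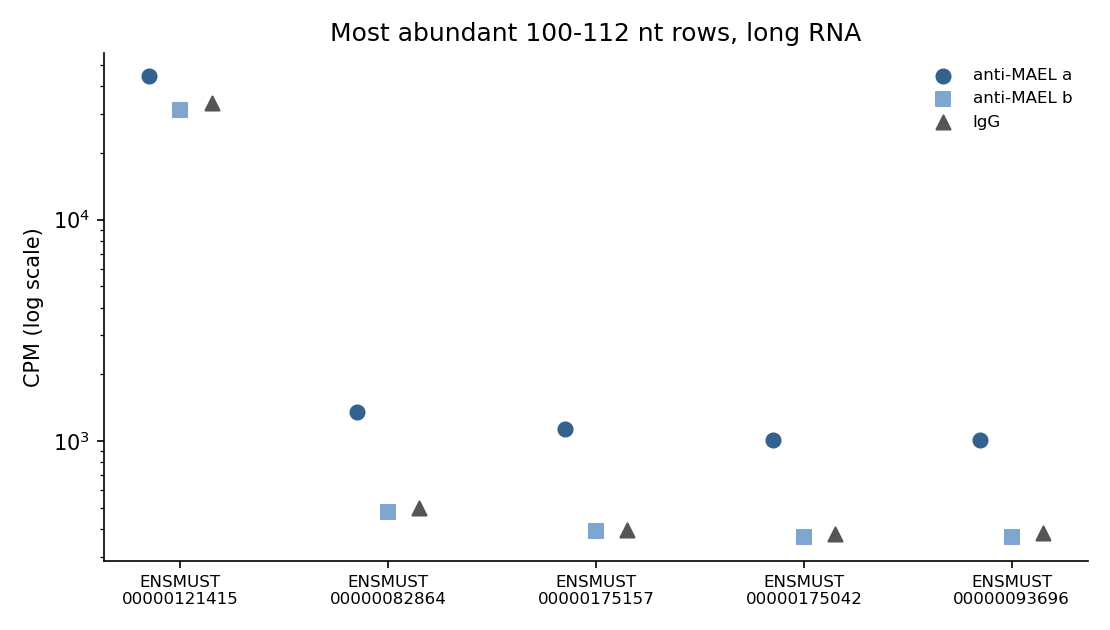
CPM (log axis) of the 5 short transcripts with the highest mean level in long anti-Mael RNA, in the anti-Mael libraries a and b and the IgG library. For ENSMUST00000121415 IgG, at 33509 CPM, lies between the anti-Mael libraries, and for the other 4 anti-Mael a lies above the other libraries.

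Of the 1389 short transcripts, 69 passed the filter in the fit of the 3 long libraries, and 0 were called in either direction (edgeR quasi-likelihood, lowest adjusted p 0.954; 0 with an unadjusted p under 0.05; DESeq2 also called 0). Over all 16066 features tested, 1.28% were called higher and 0.00% lower. The median log2 fold change of the 69 was 0.79, against 0.02 for all features tested. It was 0.09 without anti-Mael replicate a and 1.41 without b, values with no test, so it rested on library a. Spread between IgG libraries cannot be had from 1 library, and that library is assumed to vary like the anti-Mael libraries.

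At the short edge of the length range, the 47 transcripts of 100 nt took 0.00416% of the 50 to 150 nt library and the 37 of 99 nt, just outside, took 0.0277%. At the long edge, the 29 transcripts of the longest length took 0.190% and the 22 that were 1 nt longer took 0.199%. In wild-type small RNA the last pair stood at 0.00987% and 2.75e-05%.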

How the data were processed

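Counts per transcript were read from the deposited tables, 1 per library, in which the authors give a name, a size and a raw count, per the file headers. TopHat2 2.0.7, Bowtie2 2.0.6 and CASAVA 1.8 appear in the submitters' processing notes, as does build mm9, without their roles. No source used here gives the treatment of strand or of reads with several matches. Of 17 libraries the 9 that list noncoding transcripts were used. Library totals, the base of CPM, are sums over 37991 Ensembl transcripts and 1 entry for each of 214 piRNA loci, the one with the most counts. They ranged from 4831638 to 44416966 for small RNA, were 169615964 and 67897194 for anti-Mael at 15 to 50 and 50 to 150 nt, and ranged from 5702718 to 10800370 for long RNA.

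Differences were tested over all features with edgeR 4.0.16 in R 4.3.3 (quasi-likelihood, TMM, filterByExpr, Benjamini-Hochberg adjustment, threshold 0.05), with genotype or antibody as the only term. Each SE given here is the absolute log2 fold change divided by the square root of the F statistic of the quasi-likelihood test. The fit of the long libraries also held 2 entries named by GenBank records. The tests were tried on simulated data. Alternatives were DESeq2 1.42.0, other scalings, no filter, a replicate block, and each library left out. Summaries used Python 3.11.15, numpy 2.4.6, scipy 1.17.1 and pandas 2.3.3. Chi-square per degree of freedom between the libraries of a group, over features with at least 20 counts, was 12.0 in wild-type small RNA, 49.4 in Mael-/- and 51.4 in long anti-Mael RNA, so none was counted as 1 library.

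Named transcripts are the 5 most abundant in wild-type small RNA and in each kind of anti-Mael library, up to 2 called in each direction whose groups did not overlap and whose mean was 5 CPM or more, and the 3 highest and 3 lowest ratios between size fractions at 100 counts or more. The transcripts and lists were chosen with earlier results of these data known.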

Additional observations from a re-analysis of the deposited data

Results flagged for a closer look

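The mRNA table of wild-type library b held 4 counts on these short transcripts, above the 3 counts that a count of 0 allows, in data that the comparisons do not use. Wild-type mRNA library a held 1, and the other 6 mRNA and footprint libraries held 0.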

How the results depend on the processing

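In small RNA, 19 short transcripts were higher and 8 lower in Mael-/-. The counts were 89 and 0 with library totals, 3 and 11 with size factors, 4 and 7 with no filter on low counts, and 21 and 6 with DESeq2. They were 9 and 3 of 177 tested with near-equal transcripts counted once by the member with most counts, an alternative added after seeing the data. Leaving out each library gave 1 to 45 higher and 0 to 21 lower. With the letter as a replicate block they were 256 and 22, and 179 of the 209 transcripts of 107 nt were then higher. The share of all features called was not counted for these other settings. Libraries that share a letter deviated together (correlation 0.765 over 2284 features), but the labels do not say that a letter marks a shared animal or day. The 27 called transcripts kept their direction under each of these settings but the counting of near-equal transcripts once, where this was not counted. Of 0 calls over IgG, none was added by the 4 alternative fits.

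The log2 ratio of summed shares was 2.26 for Mael-/- over wild type (1.51 to 2.57 under other totals, length ranges and ways of counting, 1.59 to 2.85 with a library left out). At 50 to 150 over 15 to 50 nt it was 4.46, and 4.62 with every table entry in the total, 4.10 with Ensembl transcripts alone, 4.36 with a length range 2 nt wider at each end, 4.41 with near-equal transcripts counted once and 3.54 without the 107 nt transcripts. For anti-Mael at 15 to 50 nt over wild-type small RNA it was -0.47, and -2.54 with Ensembl transcripts alone. It turned to 0.16 with every entry in the total and ran from -0.89 to 0.13 with a wild-type library left out, so its direction is not settled. For long anti-Mael RNA over IgG it was 0.22, 0.81 without ENSMUST00000121415, and -0.10 to 0.48 with an anti-Mael library left out. The log2 fold change of ENSMUST00000121415 in small RNA was -0.0171 without Mael-/- replicate a, -0.0053 without wild-type replicate b and up to 0.447 with another library left out, and that of ENSMUST00000112230 ran from -0.0862 without wild-type replicate a to 0.712 without Mael-/- replicate b. Leaving out the 107 nt transcripts or ENSMUST00000121415 was also chosen after seeing the data. The causes were not tested.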
